A study of Mus musculus with 24 samples.

Results

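Transcripts of 10 circadian clock genes were followed in 24 RNA libraries of myeloid cells sorted from the mouse colon. They were *Arntl* and *Clock*, *Per1*, *Per2* and *Per3*, *Cry1* and *Cry2*, *Nr1d1* and *Nr1d2*, and *Dbp*, chosen by name as the genes of the core clock loop, its stabilising loop and 1 output, and found by their Ensembl identifiers among the 17301 genes deposited. All 10 were in the table, and 9 of them passed a filter of a mean of at least 1 RPKM in at least 1 group, as did 12878 genes in all. *Per3* did not pass and is given by its levels.

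The libraries came from 4 populations and 2 tissues, with 3 libraries in each of the 8 groups. The populations were F4/80hi MHCIIhi macrophages and F4/80hi MHCIIlow macrophages (MHCIIhi and MHCIIlow below), Ly6Chi MHCII- monocytes and Ly6Ghi F4/80- CD11b+ neutrophils. The tissues were the lamina propria (LP) of mice whose strain is labelled C57/BL and colon tumours of mice labelled APC/Min, which carry a germline *Apc* mutation (ApcMin/+) and form intestinal adenomas. The tumour mice were adults that had been given dextran sodium sulphate (DSS) to bring on tumours. The methods describe DSS for control mice too, at another concentration, whereas the labels call the LP healthy, so the treatment of the LP donors is not settled. Each library held cells pooled from several mice. A pool number in the labels marks the donors, so that libraries of 1 tissue with the same number came from the same mice. The hour at which mice were killed is not given in the sources used here, beyond a day of equal light and dark. Tissue, *Apc* genotype (given as strain in the labels), DSS and handling changed together with any difference in hour. In handling, LP was shaken in EDTA to strip the epithelium and digested for longer. The parts of all these in a difference between tumour and LP cannot be told apart. In sorted bulk samples, fewer cells of a type and less RNA per cell cannot be told apart either.

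The clock of mammalian cells is a loop of transcription with a period of about a day. ARNTL (also called BMAL1) and CLOCK bind E-boxes as a pair and switch on the *Per* and *Cry* genes, whose proteins return to the nucleus and repress that pair. In a second loop the nuclear receptors NR1D1 and NR1D2 (REV-ERB alpha and beta) repress *Arntl*, and ROR receptors activate it from the same elements. *Dbp* encodes a factor that acts on D-boxes and is a direct output of the loop. *Arntl* and the *Per*, *Nr1d* and *Dbp* transcripts peak at roughly opposite times of day in most tissues. *Per1* and *Per2* also respond within a short time to stimuli outside the loop, among them glucocorticoids and cAMP signalling. Macrophages, monocytes and neutrophils are all known to hold a clock.

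Levels are log2 RPKM, reads per kilobase of gene scaled by library size, so levels of different genes may be set side by side. Depth ran from 12.8 to 41.7 M reads on genes in a library (median 26.4 M). The deposited values include a prior of 0.25 reads and a scaling between libraries, so that a gene with no reads still has a finite low value that depends on the prior. The reads carry no molecular identifiers and depth speaks of counting error only. In the text below a gene is called where limma gave an adjusted p under 0.05, after Benjamini-Hochberg adjustment over the 12878 genes of that comparison. The ± after a level is the SD of 3 libraries and the ± after a fold change is its standard error. The 3 libraries of a group are separate pools of mice.

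All 10 are protein-coding genes, placed here on GRCm38 with the GENCODE annotation. *Per1* (ENSMUSG00000020893.17) lies on chromosome 11 from 69095217 to 69109960, *Per2* (ENSMUSG00000055866.9) on chromosome 1 from 91415982 to 91459324 and *Cry1* (ENSMUSG00000020038.10) on chromosome 10 from 85131700 to 85185064. *Arntl* (ENSMUSG00000055116.8) lies on chromosome 7 from 113207465 to 113314126 and *Nr1d1* (ENSMUSG00000020889.11) on chromosome 11 from 98767932 to 98775333. The libraries do not mark strand. Of the exon bases of *Dbp* 18.01% also belong to *Sphk2* on the opposite strand, and of those of *Nr1d1* 8.55% belong to *Thra*, so reads there cannot be told apart. For *Cry2* the share was 4.67% and for *Arntl* 0.439%. The other 6 members shared no exon base with another gene. Of the 51-base stretches of *Nr1d2* transcripts 4.98% also occur in transcripts of another gene, which for the *Per* genes, *Cry1*, *Clock* and *Arntl* was at most 0.196%.

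The elements through which the loop acts were looked for in the 250 bases before each annotated start, using RefSeq promoters of GRCm38.p6, which matched 9 of the 10 members (all but *Per2*) with 13 starts. The motifs were the E-box CACGTG, its variant CACGTT, the D-box (TTATGTAA or TTACGTAA), the core of the ROR element (TAGGTCA or TGGGTCA) and the cAMP response element TGACGTCA, each on both strands. No 2 of these matches overlapped. The members that held a match are shown, from 5′ to 3′ on the strand of the gene and ending at the base before the start, with the matches in capitals.
Per1 (chr11:69098699-69098948, + strand): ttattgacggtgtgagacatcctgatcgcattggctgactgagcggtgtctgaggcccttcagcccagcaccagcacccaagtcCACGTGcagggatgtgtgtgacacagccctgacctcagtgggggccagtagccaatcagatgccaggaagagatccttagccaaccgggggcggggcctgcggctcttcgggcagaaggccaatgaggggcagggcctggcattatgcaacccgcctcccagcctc
Cry1 (chr10:85185055-85185304, - strand): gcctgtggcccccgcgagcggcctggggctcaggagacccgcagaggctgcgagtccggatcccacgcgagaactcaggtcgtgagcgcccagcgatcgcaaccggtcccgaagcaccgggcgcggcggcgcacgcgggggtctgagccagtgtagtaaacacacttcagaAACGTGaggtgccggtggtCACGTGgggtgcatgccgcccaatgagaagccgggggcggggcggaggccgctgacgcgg
Cry2 (chr2:92434070-92434319, - strand): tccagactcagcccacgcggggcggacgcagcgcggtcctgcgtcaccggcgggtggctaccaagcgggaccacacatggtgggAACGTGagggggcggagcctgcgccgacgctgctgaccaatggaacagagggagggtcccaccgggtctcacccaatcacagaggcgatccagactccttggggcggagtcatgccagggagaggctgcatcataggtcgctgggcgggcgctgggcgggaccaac
Nr1d1 (chr11:98775378-98775627, - strand): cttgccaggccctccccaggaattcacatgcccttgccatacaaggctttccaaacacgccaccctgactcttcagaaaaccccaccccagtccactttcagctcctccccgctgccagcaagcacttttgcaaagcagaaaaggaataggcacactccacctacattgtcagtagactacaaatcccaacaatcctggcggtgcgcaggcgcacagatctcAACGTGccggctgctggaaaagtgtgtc
Per3 (chr4:151044666-151044915, - strand): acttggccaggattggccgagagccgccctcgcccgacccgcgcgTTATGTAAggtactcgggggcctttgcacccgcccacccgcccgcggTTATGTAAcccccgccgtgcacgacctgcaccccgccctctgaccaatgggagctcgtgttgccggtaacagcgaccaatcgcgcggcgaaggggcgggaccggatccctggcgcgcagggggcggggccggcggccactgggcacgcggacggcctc
*Per1* held an E-box 161 to 166 bases before its upstream start and none of the motifs at its other start. *Cry1* held an E-box at 55 to 60 bases and the variant at 74 to 79 bases, and *Cry2* and *Nr1d1* each held the variant alone. *Per3* held a pair of D-boxes. Of 32851 promoters in the table, 6.02% held the E-box, 3.85% the variant, 0.931% a D-box, 5.38% the ROR core and 1.55% the cAMP response element. No match to these letters lay in the windows of *Arntl*, *Clock*, *Nr1d2* and *Dbp*, which says nothing of elements elsewhere.

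The activators were lowest in neutrophils. *Arntl* stood at 2.00, 2.01 and 1.78 log2 RPKM in LP MHCIIhi macrophages (pools III, IV and V) and at 4.21, 2.93 and 3.56 in LP MHCIIlow macrophages (pools II, III and IV). LP pool II, with 2229 reads, held the highest *Arntl* of all 24 libraries. LP monocytes lay between 1.47 and 2.70, tumour MHCIIhi macrophages between 1.73 and 2.29, tumour MHCIIlow macrophages between 1.91 and 2.77 and tumour monocytes between 1.05 and 1.68. *Arntl* was lower in every LP neutrophil library, at 0.23, 0.72 and 0.63. In the tumour neutrophils of pools I, II and V it had 0, 20 and 2 reads, which gives −8.36, −0.24 and −3.43 log2 RPKM and an SD of 4.09. *Clock*, which encodes the partner of ARNTL, lay between 1.65 and 2.998 in all macrophage and monocyte libraries. It stood at 0.14, 0.48 and 0.18 in LP neutrophils and at −1.05, 0.84 and 0.53 in tumour neutrophils, so that no neutrophil library reached the lowest library of another population. In order of mean level, ranges of neighbouring groups overlapped at every step for *Clock* except between the macrophage and monocyte groups and neutrophils.

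**Figure D1:**
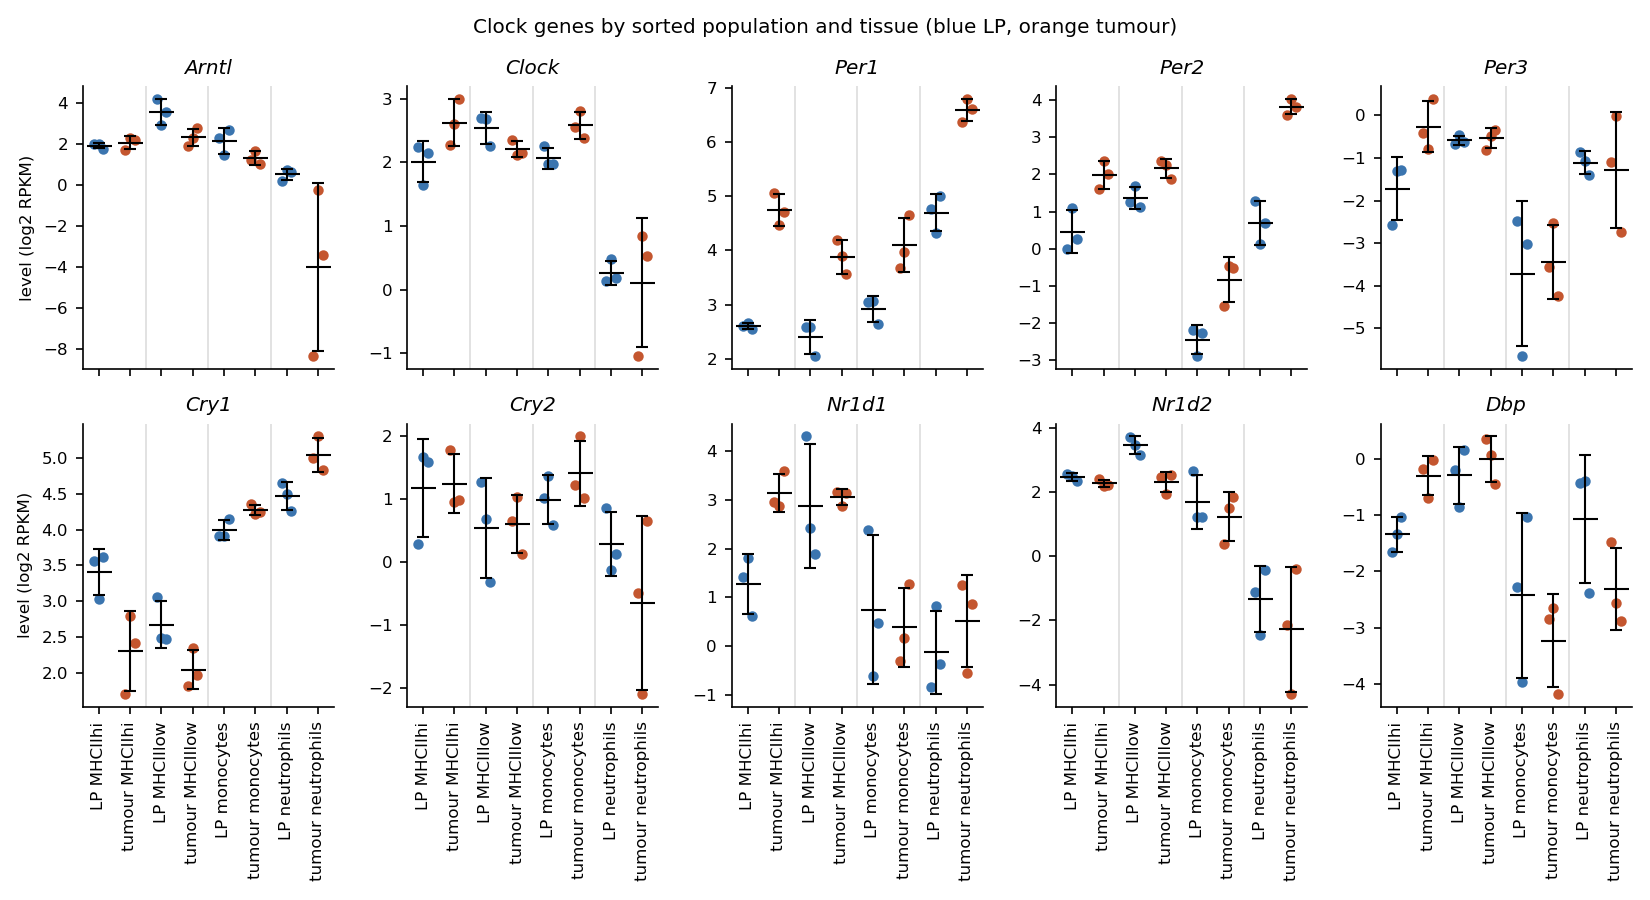
Level of each of the 10 clock genes in log2 RPKM (vertical axis, a separate range for each gene) in the 8 groups (horizontal axis). Points are libraries, blue for LP and orange for tumour, and bars are the mean and SD of 3 libraries. *Per1* in tumour lies above LP in each population (2.60 against 4.75 in MHCIIhi macrophages), and *Arntl* in tumour neutrophils spreads from −8.36 to −0.24.

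The period genes encode repressors of the ARNTL and CLOCK pair. *Per1* was the most abundant member in tumour neutrophils, at 6.38, 6.79 and 6.61 log2 RPKM in pools I, II and V, against 4.77, 4.33 and 5.00 in LP neutrophils of pools III, IV and V. MHCIIhi macrophages held 2.60, 2.65 and 2.55 in LP and 5.06, 4.48 and 4.72 in tumour. MHCIIlow macrophages held 2.59, 2.58 and 2.04 in LP and 4.18, 3.90 and 3.56 in tumour. Monocytes held 3.05, 3.06 and 2.65 in LP and 3.67, 3.96 and 4.65 in tumour. The LP and tumour libraries did not overlap in any of the 4 populations, and by mean level the 3 lowest groups were LP monocytes, LP MHCIIhi and LP MHCIIlow macrophages, where only neighbours in that order overlapped.

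*Per2* had another order. It was lowest in monocytes, at −2.19, −2.91 and −2.26 log2 RPKM in LP (32 to 44 reads) and −1.54, −0.46 and −0.51 in tumour (60 to 120 reads). Neutrophils held 1.30, 0.11 and 0.69 in LP and 3.62, 4.04 and 3.83 in tumour. MHCIIhi macrophages held −0.01, 1.11 and 0.26 in LP and 1.61, 2.36 and 2.00 in tumour, and MHCIIlow macrophages 1.27, 1.68 and 1.13 in LP and 2.37, 2.26 and 1.89 in tumour. As with *Per1*, tumour and LP libraries of each population did not overlap. *Per3*, the third period gene, was scarce in every group, with means from −3.72 ± 1.70 in LP monocytes to −0.27 ± 0.60 in tumour MHCIIhi macrophages and 8 to 364 reads per library. Its LP and tumour ranges overlapped in MHCIIlow macrophages, monocytes and neutrophils.

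The cryptochromes encode the partners of the PER proteins. *Cry1* stood highest in neutrophils, with 4.66, 4.49 and 4.26 log2 RPKM in LP and 5.00, 5.30 and 4.83 in tumour, and next in monocytes, with 3.91 to 4.15 in LP and 4.22 to 4.35 in tumour. MHCIIhi macrophages held 3.57, 3.04 and 3.62 in LP and 1.71, 2.80 and 2.42 in tumour. MHCIIlow macrophages held 3.06, 2.50 and 2.47 in LP and 1.83, 2.35 and 1.97 in tumour. On the authors' scaling, the tumour libraries lay below the LP libraries in both macrophage subsets and above them in monocytes and neutrophils. *Cry2* was lower, with group means between −0.64 and 1.41, and the ranges of all neighbouring groups in its order overlapped.

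The genes of the second loop and *Dbp* had their highest group means in macrophages. *Nr1d1* stood at 2.96, 2.87 and 3.59 log2 RPKM in tumour MHCIIhi and at 3.17, 2.88 and 3.14 in tumour MHCIIlow macrophages. LP MHCIIhi macrophages held 1.42, 1.80 and 0.61, all below the tumour libraries, and LP MHCIIlow macrophages held 4.30, 2.42 and 1.89. LP pool II of the MHCIIlow macrophages stood apart, with 2512 reads of *Nr1d1* against 354 and 202 in pools III and IV. LP monocytes spread from −0.62 to 2.39, with pool III highest, and the means of tumour monocytes, LP neutrophils and tumour neutrophils were 0.39, −0.13 and 0.52. *Nr1d2* was highest in LP MHCIIlow macrophages, at 3.72, 3.48 and 3.16, followed by the other macrophage groups (1.95 to 2.57), monocytes (0.38 to 2.65) and neutrophils (−4.30 to −0.40). *Dbp* was scarce, with 3 to 135 reads per library, and ranged from −3.22 ± 0.83 in tumour monocytes to −0.01 ± 0.40 in tumour MHCIIlow macrophages. Its neighbouring groups overlapped at every step.

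Each population was then compared between tumour and LP. *Per1* was the member that rose in all 4 populations, and *Per2* rose in 3 of them. *Per1* rose by 2.15 ± 0.24 on the log2 scale in MHCIIhi macrophages (limma adjusted p = 2.44e-06), by 1.48 ± 0.24 in MHCIIlow macrophages (limma adjusted p = 1.31e-04), by 1.17 ± 0.24 in monocytes (limma adjusted p = 0.0037) and by 1.89 ± 0.24 in neutrophils (limma adjusted p = 7.88e-06). These are 4.45-, 2.78-, 2.26- and 3.71-fold differences. *Per2* rose by 1.54 ± 0.39 in MHCIIhi macrophages (limma adjusted p = 0.00784), by 1.62 ± 0.39 in monocytes (limma adjusted p = 0.0112) and by 3.13 ± 0.39 in neutrophils (limma adjusted p = 6.03e-06), and its value in MHCIIlow macrophages was 0.81 ± 0.39 (limma adjusted p = 0.149) without overlap of tumour and LP. There it was called by voom (0.82, adjusted p = 0.0228) and with log2(RPKM + 1) (0.63, limma adjusted p = 0.0314), so the number of populations in which *Per2* rose depends on the fit. Over the mean of the 4 populations *Per1* rose by 1.67 ± 0.12 (limma adjusted p = 1.80e-09) and *Per2* by 1.77 ± 0.20 (limma adjusted p = 5.01e-07). For both genes tumour lay above LP in 12 of 12 libraries within their populations, but libraries of 1 pool share mice. With 1 mean per pool *Per1* rose by 1.60 ± 0.13 (limma adjusted p = 7.71e-04) and *Per2* by 1.73 ± 0.25 (limma adjusted p = 0.00467). The calls in monocytes were the least firm. With only the 6 monocyte libraries in the fit the limma adjusted p was 0.0651 for *Per1* and 0.139 for *Per2*, and *Per2* was not called in 5 of its 17 alternatives, among them log2(RPKM + 1), where its change was 0.41, and the fits without tumour library II or V (limma adjusted p = 0.0573 and 0.0505).

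*Cry1* and *Arntl* were called in the other direction. *Cry1* fell by 1.10 ± 0.24 in MHCIIhi macrophages (limma adjusted p = 0.0024, and 0.0683 with only the 6 libraries compared). Its value was −0.63 ± 0.24 in MHCIIlow macrophages (limma adjusted p = 0.0641), 0.28 ± 0.24 in monocytes (limma adjusted p = 0.553) and 0.57 ± 0.24 in neutrophils (limma adjusted p = 0.0734). In neutrophils *Cry1* was called higher with log2(RPKM + 1) (0.55, limma adjusted p = 0.0483). *Arntl* fell by 4.53 ± 1.12 on the log2 scale in tumour neutrophils (limma adjusted p = 0.00417). That size rests on libraries with 0 and 2 reads, whose values depend on the prior, against 64 to 96 reads in LP neutrophils. It was −0.95 with log2(RPKM + 1), −3.81 with voom on the recovered reads, −6.42 without tumour library II and −2.36 without tumour library I, and with only the 6 neutrophil libraries the limma adjusted p was 0.195. In the other populations *Arntl* changed by 0.15, −1.24 and −0.84 (MHCIIhi, MHCIIlow and monocytes, each ± 1.12, limma adjusted p = 0.961, 0.484 and 0.741). That error is shared by all groups, the spread of tumour neutrophils included, and in MHCIIlow macrophages, where tumour and LP did not overlap, *Arntl* was called lower by voom (−1.33 ± 0.34, adjusted p = 0.00512) and with log2(RPKM + 1) (−1.09, limma adjusted p = 0.00629), but not with only the 6 libraries compared (limma adjusted p = 0.0857). Over the mean of the 4 populations *Arntl* fell by 1.61 ± 0.56 (limma adjusted p = 0.0256), a call that was lost with the pool number as a fixed block, which joins LP and tumour pools of the same number although they are different mice (limma adjusted p = 0.307), and with 1 mean per pool (limma adjusted p = 0.103).

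**Figure D2:**
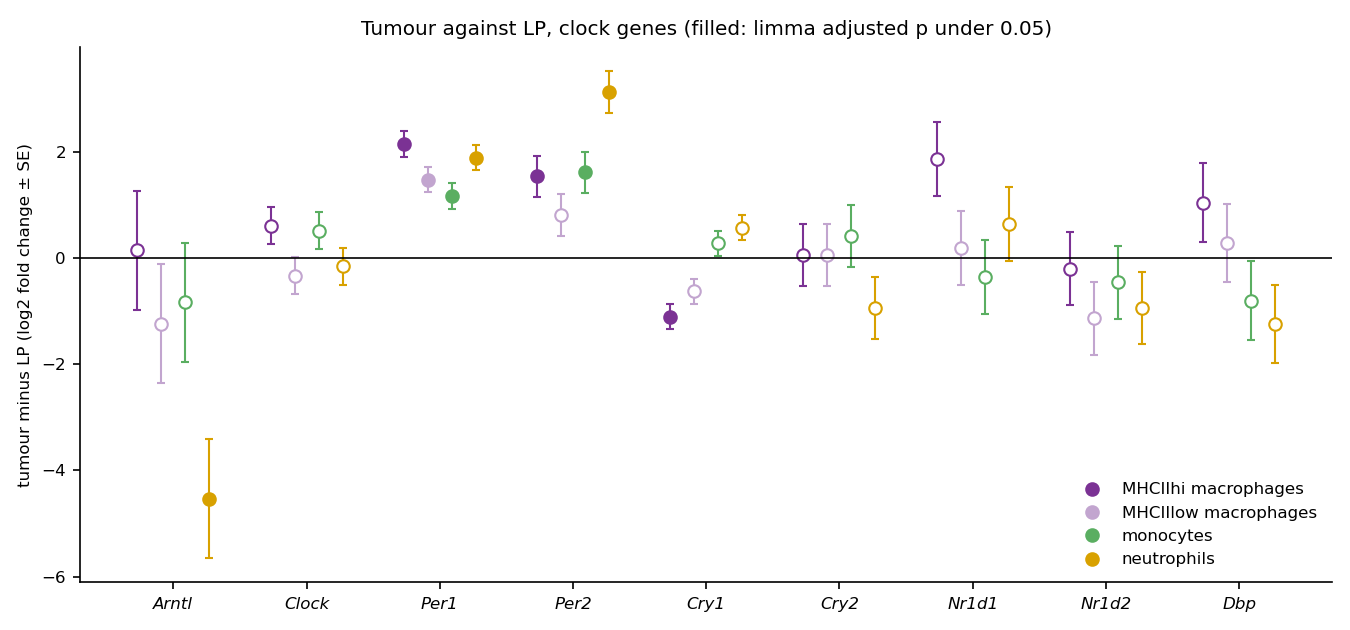
Tumour minus LP as a log2 fold change with its standard error (vertical axis) for the 9 clock genes that passed the filter (horizontal axis), with a colour for each population. Filled points have a limma adjusted p under 0.05. *Per1* is filled in all 4 populations, *Per2* in 3, *Cry1* only in MHCIIhi macrophages and *Arntl* only in neutrophils.

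The remaining members gave no call between tumour and LP with limma over all libraries, but some were called under alternatives. *Nr1d2* in MHCIIlow macrophages, at −1.13 ± 0.68 (limma adjusted p = 0.26) without overlap of tumour and LP, was called by voom (−1.21, adjusted p = 0.00266), with log2(RPKM + 1) (−0.99, limma adjusted p = 0.011) and with only the 6 libraries compared (limma adjusted p = 0.0276). *Clock* in MHCIIhi macrophages, at 0.61 ± 0.35 (limma adjusted p = 0.251), was called by voom (0.63, adjusted p = 0.0225). Without tumour library V, *Nr1d2* and *Cry2* were called lower in neutrophils, at −1.88 and −1.58 (limma adjusted p = 0.0266 and 0.0451). *Nr1d1* in MHCIIhi macrophages had a value of 1.86 ± 0.70 (limma adjusted p = 0.0678) with the 3 tumour values above all LP values, and 5 of 17 alternatives called it, with a limma adjusted p from 0.0141 to 0.340. In MHCIIlow macrophages it was 0.19 ± 0.70 (limma adjusted p = 0.897), or 0.91 ± 0.71 without LP pool II (limma adjusted p = 0.44). *Clock* ranged over the populations from −0.33 to 0.61, *Cry2* from −0.94 to 0.42, *Nr1d2* from −1.13 to −0.20 and *Dbp* from −1.24 to 1.04, with limma adjusted p from 0.217 to 0.974. Without a filter *Per3* gave 1.45, 0.04, 0.28 and −0.17 in MHCIIhi, MHCIIlow, monocytes and neutrophils (each ± 0.83, limma adjusted p = 0.296 to 1).

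Counted together, 3 of the 9 members were called in MHCIIhi macrophages (33.3%), where 19.5% of all genes tested were called. In MHCIIlow macrophages 1 was called (11.1%, all genes 23.3%), in monocytes 2 (22.2%, all genes 9.29%), in neutrophils 3 (33.3%, all genes 32.2%) and over the mean of the 4 populations 3 (33.3%, all genes 42.4%). In neutrophils the share of members called was near that of all genes, and in MHCIIlow macrophages and over the mean it was below it. Since 1 gene is 11.1% of the 9 members, the counts in MHCIIhi macrophages and monocytes are small too. None of these counts says anything particular of clock genes. The median log2 fold change of the 9 members was 0.61 in MHCIIhi macrophages, 0.06 in MHCIIlow macrophages, 0.28 in monocytes, −0.16 in neutrophils and −0.10 over the mean, and that of all genes tested was 0, 0.06, 0, −0.12 and −0.04.

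The tumour effect was also compared between populations. *Cry1* was the member called: its change in macrophages (mean of both subsets) less its change in monocytes was −1.14 ± 0.29 on the log2 scale (limma adjusted p = 0.0153), 1 of 9 members where 9.19% of all genes were called. With the pool number as a fixed block the value was −1.03 and the limma adjusted p 0.0668, and with the summed reads as library size −0.92 and 0.0522. Between neutrophils and monocytes 0 of 9 members were called (all genes 9.11%), with *Per2* at 1.51 ± 0.55 (limma adjusted p = 0.0936), *Per1* at 0.72 ± 0.34 (limma adjusted p = 0.199) and *Arntl* at −3.69 ± 1.58 (limma adjusted p = 0.155). These 3 had an unadjusted p under 0.05, and voom called 0. *Arntl* was called without tumour neutrophil library II, at −5.58 (limma adjusted p = 0.00436), and *Per2* with log2(RPKM + 1), at 2.10 (limma adjusted p = 2.08e-04). That size for *Arntl* depends on the prior, since the tumour neutrophil libraries left, I and V, had 0 and 2 reads of it. The call of *Per2* depends on the added 1, since its means in LP and tumour monocytes were 0.19 and 0.59 RPKM. Adding 1 to such low levels shrinks the change in monocytes, which was 0.41 on that scale. Between MHCIIlow and MHCIIhi macrophages 0 of 9 were called by limma or by voom (all genes 1.46%), 0 had an unadjusted p under 0.05, and *Per1* stood at −0.68 ± 0.34.

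Populations were compared as the mean of both tissues. In neutrophils against monocytes 7 of 9 members were called (77.8%), where 68.0% of all genes were, so the count is near that share. The activators were lower, with *Clock* at −2.14 ± 0.25 (limma adjusted p = 2.18e-07) and *Arntl* at −3.48 ± 0.79 (limma adjusted p = 6.52e-04), as were *Nr1d2* at −3.28 ± 0.48 (limma adjusted p = 5.63e-06) and *Cry2* at −1.38 ± 0.41 (limma adjusted p = 0.00609). The sizes for *Arntl* and *Nr1d2* depend on the prior, since tumour neutrophils held 0 to 20 and 2 to 29 reads of them. With log2(RPKM + 1) they were −1.32 and −1.48 (limma adjusted p = 7.54e-06 and 1.36e-06). *Per2* was higher by 3.91 ± 0.28 (limma adjusted p = 1.52e-10), *Per1* by 2.14 ± 0.17 (limma adjusted p = 9.64e-10) and *Cry1* by 0.62 ± 0.17 (limma adjusted p = 0.00289). *Dbp* (1.14 ± 0.53, limma adjusted p = 0.0618) and *Nr1d1* (−0.37 ± 0.49, limma adjusted p = 0.517) were not called. The median of all genes was −0.37 in this comparison, and with the summed reads as library size in place of the authors' scaling it was −1.30. On that scale *Per1* and *Per2* were still higher, by 1.16 and 2.93, *Cry1* turned to −0.36 (limma adjusted p = 0.0661), *Nr1d1* was lower (−1.35, limma adjusted p = 0.0215), and the split of calls went from 3 higher and 4 lower to 2 higher and 5 lower. With quantile normalization the calls of *Cry1* (0.29, limma adjusted p = 0.161) and *Cry2* (−0.81, limma adjusted p = 0.0836) were lost.

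**Figure D3:**
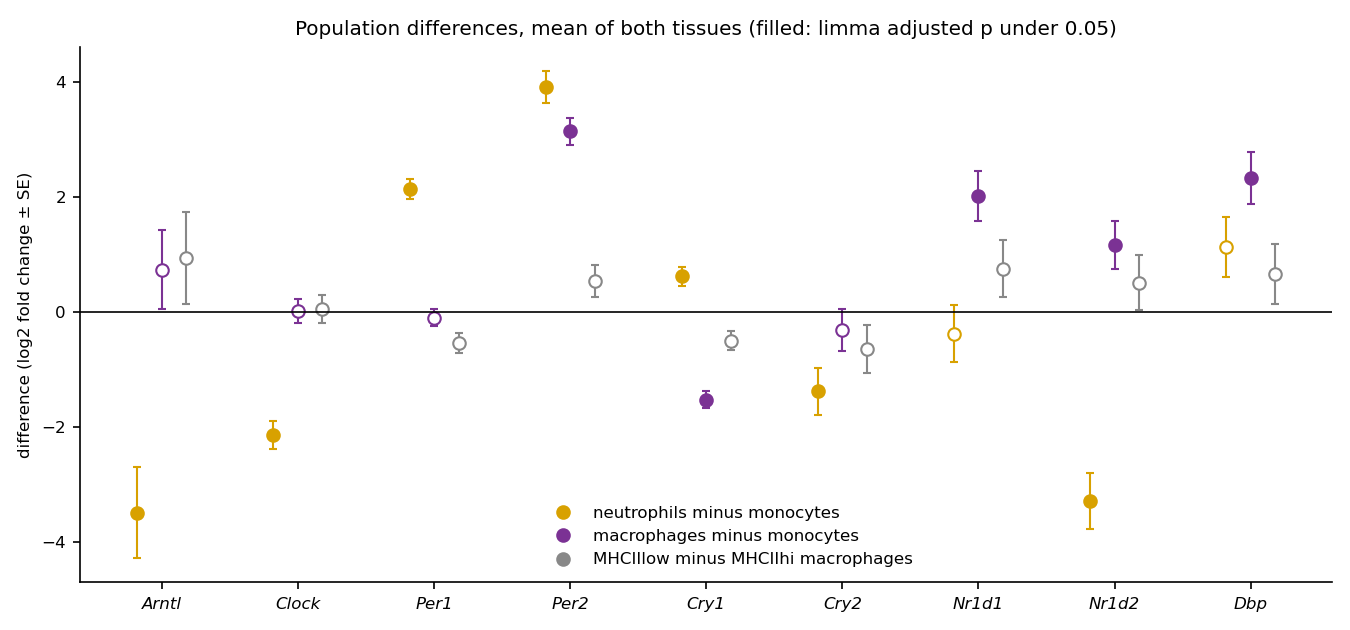
Differences between populations, as the mean of both tissues, in log2 fold change with its standard error (vertical axis) for the 9 clock genes that passed the filter (horizontal axis). Filled points have a limma adjusted p under 0.05. *Per2* is higher than in monocytes by 3.91 in neutrophils and 3.14 in macrophages, and the grey points for MHCIIlow minus MHCIIhi macrophages are all open.

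Macrophages, as the mean of both subsets, differed from monocytes in 5 of 9 members (55.6%, all genes 46.9%), which is near the share of all genes. *Per2* was higher by 3.14 ± 0.24 (limma adjusted p = 1.39e-09), *Dbp* by 2.33 ± 0.46 (limma adjusted p = 2.79e-04), *Nr1d1* by 2.02 ± 0.43 (limma adjusted p = 6.23e-04) and *Nr1d2* by 1.16 ± 0.42 (limma adjusted p = 0.0278), and *Cry1* was lower at −1.52 ± 0.15 (limma adjusted p = 3.99e-08). *Nr1d2* was the least firm of these, with a limma adjusted p of 0.0568 with the pool number as a fixed block and of 0.0743, 0.0768 and 0.0948 without LP monocyte library IV, LP monocyte library V and tumour monocyte library I. *Dbp* passed the filter only through tumour MHCIIlow macrophages (mean 1.02 RPKM), which are part of this comparison. Its call is therefore not separate from the filter. Its size rests on 8 to 52 reads in LP and 4 to 13 reads in tumour monocytes. With log2(RPKM + 1) it was 0.57 (limma adjusted p = 1.82e-04). *Per1* differed by −0.10 ± 0.15 (limma adjusted p = 0.617) and *Clock* by 0.02 ± 0.21 (limma adjusted p = 0.935). *Arntl* stood at 0.74 ± 0.69 (limma adjusted p = 0.398), and it was called higher by voom (0.79, adjusted p = 0.0158), with log2(RPKM + 1) (0.60, limma adjusted p = 0.00729) and with only the libraries compared, which leaves out neutrophils (0.74 ± 0.21, limma adjusted p = 0.0091). *Cry2* stood at −0.31 ± 0.36 (limma adjusted p = 0.503). Without a filter *Per3* was higher than in monocytes by 2.80 ± 0.51 in macrophages (limma adjusted p = 1.49e-04) and by 2.38 ± 0.58 in neutrophils (limma adjusted p = 0.00154). The comparisons with monocytes share the monocyte libraries.

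Between the macrophage subsets, MHCIIlow minus MHCIIhi, 0 of 9 members were called by limma over all libraries, where 6.72% of all genes were, and voom called *Arntl* alone. Leaving out 1 library called *Cry1* (LP MHCIIlow II or tumour MHCIIhi I, −0.59 and −0.64) or *Per1* (tumour MHCIIlow I, −0.61). An unadjusted p under 0.05 was reached by *Cry1* (−0.49 ± 0.17, limma adjusted p = 0.0869) and *Per1* (−0.53 ± 0.17, limma adjusted p = 0.0648). *Arntl* stood at 0.94 ± 0.79 (limma adjusted p = 0.605) and *Nr1d1* at 0.76 ± 0.49 (limma adjusted p = 0.45), which became 0.40 ± 0.48 without LP pool II. With only the macrophage libraries, which leaves out neutrophils, *Arntl* was called (0.94 ± 0.23, limma adjusted p = 0.0377), as was *Nr1d2* (0.51 ± 0.13, limma adjusted p = 0.0458). With log2(RPKM + 1) *Arntl* (0.81, limma adjusted p = 0.0126) and *Per1* (−0.50, limma adjusted p = 0.0485) were called. Across all 8 groups 8 of the 9 members differed, where 88.2% of all genes did, and *Cry2* lay just over the threshold (limma adjusted p = 0.05).

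Libraries of 1 pool came from the same mice, and pools were compared as a stand-in for any difference between groups of mice, the hour included. No member was called between pools of a tissue, with 0 of 9 for LP and tumour together (all genes 0.893%), 0 for the LP pools (all genes 0.536%) and 0 for the tumour pools (all genes 0.645%), and voom called 0 in each. An unadjusted p under 0.05 was reached by *Arntl* between tumour pools alone, and 1 member was called there without tumour monocyte library II. A p over the threshold does not show that pools were alike, since a pool holds at most 4 libraries. The within-pool correlation of a member, as limma estimates it, ran from −0.32 for *Cry2* to 0.18 for *Arntl*, where the estimate over all genes together was 0.0476.

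Within groups the typical correlation between members was low, and single pairs depended on the libraries included. For 45 pairs of members, the differences of the 24 libraries from their group means were correlated, with a median Pearson r of 0.112 and a range from −0.51 to 0.82. The highest r, between *Arntl* and *Clock*, was 0.82 (Spearman rho 0.55), and it was 0.33 without tumour neutrophil libraries I and II and 0.22 without any tumour neutrophils. Next came *Per3* with *Dbp* at 0.60 (rho 0.52). It was 0.41 without LP monocyte library IV and tumour neutrophil library V, and 0.68 without any tumour neutrophils. Leaving out tumour neutrophils also raised *Per1* with *Nr1d2* from 0.31 to 0.66 and *Per2* with *Nr1d2* from 0.24 to 0.50. It lowered *Cry2* with *Nr1d2* from 0.59 to 0.15. The libraries share a scaling and low counts in neutrophils, and the values are descriptions.

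Over levels in all 24 libraries, which fall into 8 groups, the genes most like each member were found among 5530 genes with a mean of at least 5 RPKM, without predicted genes. For *Per1* they were *Btg2* (Pearson r 0.95), an immediate early gene, and *Dapp1* (0.94), and for *Per2* *Rnf13* (0.93) and *Hacd4* (0.92). For *Cry1* they were *Ptpn1* (0.96), which encodes a tyrosine phosphatase, and *Jak2* (0.96), a kinase of cytokine receptors. They were *Bag5* (0.92) and *Abcb1b* (0.91) for *Arntl*, *Ccdc50* and *Tmem87b* (both 0.93) for *Clock*, *Gna15* (0.95) and *Rbbp7* (0.84) for *Nr1d1*, and *Pitrm1* (0.96) and *Golt1b* (0.94) for *Nr1d2*. The likeness was lower for *Cry2*, with *Ccdc117* (0.79) and *Pnpt1* (0.78), and *Dbp*, with *Plau* (0.82) and *Tpp1* (0.80).

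Of 23 names of further clock genes 21 were in the table and 17 passed the filter. *Npas2*, *Arntl2*, *Hlf* and *Fbxl21* did not pass. *Npas2* encodes an alternative partner of ARNTL and *Arntl2* a relative of it, and their group means were at most −3.76 and −1.65 log2 RPKM. Between tumour and LP 3 of the 17 were called higher and 3 lower in MHCIIhi macrophages, 4 and 3 in MHCIIlow macrophages, 2 and 0 in monocytes, 3 and 4 in neutrophils, and 7 and 4 over the mean of the 4 populations, where 19.5%, 23.3%, 9.29%, 32.2% and 42.4% of all genes were called. Their median log2 fold change ran over the 4 populations from −0.08 to 0.18.

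By role, *Rora*, the activator of *Arntl* that opposes the NR1D receptors, fell by 1.42 ± 0.43 in MHCIIlow macrophages (limma adjusted p = 0.0203) and by 1.21 ± 0.43 in neutrophils (limma adjusted p = 0.0377). *Bhlhe40*, an E-box repressor, rose by 1.28 ± 0.18 in MHCIIlow macrophages (limma adjusted p = 2.78e-05) and by 0.84 ± 0.18 in monocytes (limma adjusted p = 0.00524), and its relative *Bhlhe41* rose by 2.96 ± 0.88 in MHCIIhi macrophages (limma adjusted p = 0.0207). *Nfil3*, which acts against DBP at D-boxes, rose by 1.35 ± 0.43 in MHCIIlow macrophages (limma adjusted p = 0.0257). *Tef*, a relative of *Dbp*, fell by 4.21 ± 1.18 in neutrophils (limma adjusted p = 0.00986). That fold change depends on the prior, since *Tef* had 0 to 10 reads in tumour and 6 to 44 reads in LP neutrophils. The kinase gene *Csnk1e*, whose product phosphorylates PER proteins, rose by 1.16 ± 0.24 and 0.95 ± 0.24 in the MHCIIhi and MHCIIlow macrophages (limma adjusted p = 0.00174 and 0.00647). *Cipc*, an inhibitor of CLOCK, fell by 1.40 ± 0.32 in MHCIIhi macrophages (limma adjusted p = 0.00396) and by 2.45 ± 0.32 in neutrophils (limma adjusted p = 1.18e-05). *Noct*, a rhythmic output gene, fell by 1.77 ± 0.35 and 1.27 ± 0.35 in the MHCIIhi and MHCIIlow macrophages (limma adjusted p = 0.00119 and 0.0118) and rose by 1.00 ± 0.35 in neutrophils (limma adjusted p = 0.0364), and *Nampt*, a clock target that makes NAD, rose by 0.66 ± 0.19 and 0.69 ± 0.19 in the macrophage subsets (limma adjusted p = 0.0172 and 0.0117). *Sirt1*, an NAD-dependent deacetylase gene, fell by 0.94 ± 0.16 over the mean of the populations (limma adjusted p = 9.47e-05).

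**Figure D4:**
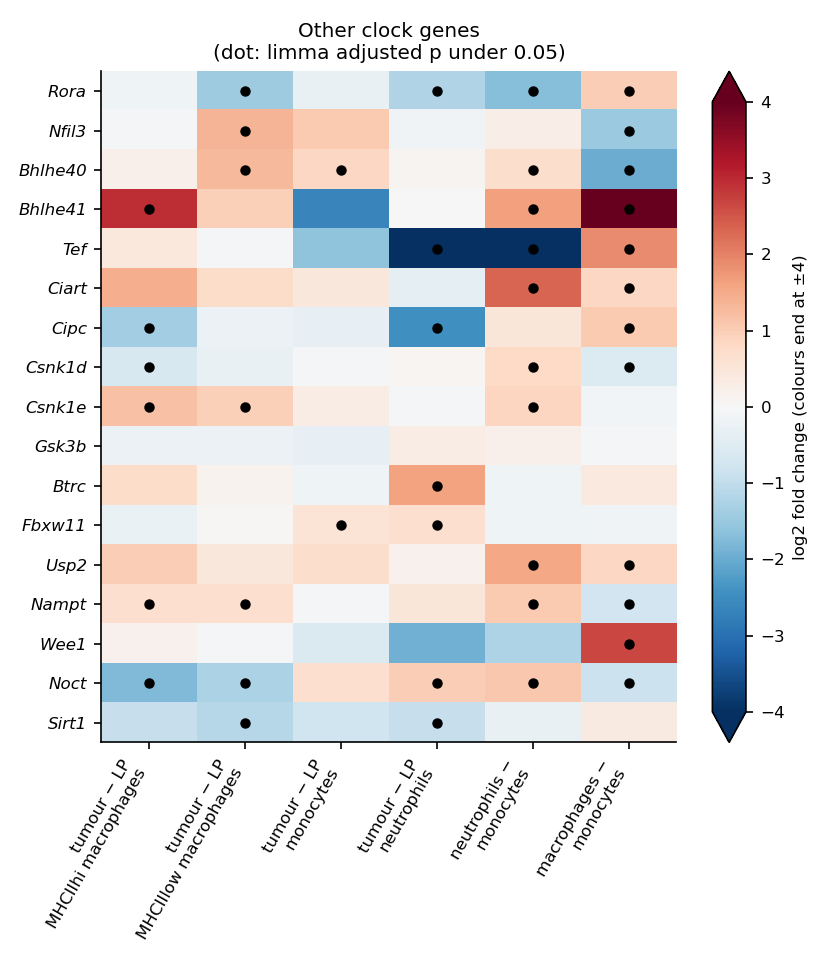
Log2 fold changes (colour, ending at ±4) of the 17 further clock genes that passed the filter (rows) in the 4 comparisons of tumour with LP and in 2 comparisons between populations (columns). A dot marks a limma adjusted p under 0.05. *Noct* is blue in both macrophage subsets and red in neutrophils, and *Gsk3b* holds no dot.

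Between populations, 8 of the 17 were higher and 2 lower in neutrophils than in monocytes, and 7 were higher and 5 lower in macrophages, where 68.0% and 46.9% of all genes were called. *Bhlhe41* differed most in macrophages, by 5.87 ± 0.54 (limma adjusted p = 2.03e-08), while *Bhlhe40* was lower there at −1.98 ± 0.11 (limma adjusted p = 1.62e-11). *Ciart*, a repressor of the loop, was higher in neutrophils by 2.34 ± 0.38 (limma adjusted p = 1.69e-05) and in macrophages by 0.82 ± 0.33 (limma adjusted p = 0.0467). *Tef* was lower in neutrophils at −4.11 ± 0.83 (limma adjusted p = 2.14e-04).

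Other genes that respond quickly to stimuli are given beside *Per1* and *Per2*, with the shares of all genes called being 19.5%, 23.3%, 9.29% and 32.2% in the order of populations used here. Of 17 immediate early genes 8 were called higher and 1 lower in tumour MHCIIhi macrophages, 3 and 2 in MHCIIlow macrophages, 8 and 0 in monocytes and 12 and 0 in neutrophils, with medians of 0.93, 0.23, 0.69 and 1.36 on the log2 scale. *Btg2*, whose levels were most like those of *Per1*, rose by 2.23 ± 0.31, 1.42 ± 0.31, 1.23 ± 0.31 and 1.35 ± 0.31 in these 4 populations (limma adjusted p = 2.54e-05, 0.00184, 0.0139 and 0.00214). That likeness was found over the same libraries, so the rise of *Btg2* is not separate from that of *Per1*. *Nr4a1* rose by 3.81 ± 0.34 in neutrophils (limma adjusted p = 1.51e-07). Summed over the list, log2 RPKM lay between 13.4 and 13.6 in LP neutrophils and between 14.9 and 15.3 in tumour neutrophils, and between 11.6 and 12.8 in all macrophage and monocyte libraries. Of 8 glucocorticoid-responsive genes tested (*Dusp1* is in both lists) 2 were higher and 2 lower in tumour MHCIIhi macrophages, 3 and 2 in MHCIIlow macrophages, 3 and 0 in monocytes and 3 and 1 in neutrophils, with medians of −0.17, −0.31, 0.44 and 0.68. *Fkbp5*, a target of the glucocorticoid receptor, rose by 1.72 ± 0.49 and 2.67 ± 0.49 in MHCIIhi and MHCIIlow macrophages (limma adjusted p = 0.0158 and 3.90e-04). Of 9 heat shock genes 2 were higher and 3 lower in MHCIIhi macrophages, 0 and 4 in MHCIIlow macrophages, 2 and 1 in monocytes and 2 and 0 in neutrophils, with medians of 0.47, −1.29, −0.21 and 0.25. LP pool II of the MHCIIlow macrophages, which stood apart for *Nr1d1*, also held the highest summed heat shock level of its group, 11.5 log2 RPKM against 9.46 and 9.66. The part of stimulation, handling or hour in the change of *Per1* and *Per2* was not tested.

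Macrophage and neutrophil markers were highest in the populations so labelled, and markers of other cells differed between tissues. Levels are the log2 of summed RPKM. For the counts of markers called between tumour and LP, the shares of all genes called in either direction were as follows. They were 19.5% in MHCIIhi macrophages, 23.3% in MHCIIlow macrophages and 42.4% over the mean of the 4 populations. Macrophage markers summed to at most 13.0 and at least 12.04 log2 RPKM in macrophages and between 9.22 and 10.1 in the other populations, and neutrophil markers to between 13.5 and 14.8 in neutrophils and between 4.95 and 9.41 elsewhere. Monocyte markers summed to between 9.59 and 11.6 in monocytes, to between 9.33 and 10.3 in neutrophils and to at most 4.40 in macrophages. Of 6 neutrophil markers 2 were called higher in each tumour macrophage subset, where they summed to 7.25 to 7.79 (MHCIIhi) and 7.95 to 9.41 (MHCIIlow), against 4.95 to 6.42 in LP macrophages. *Ly6g*, 1 of the 6, had 0 reads in tumour MHCIIhi and up to 40 reads in tumour MHCIIlow macrophages. Of 7 epithelial markers 6 were called higher in tumour over the mean of the populations, and they summed to between 2.75 and 7.73 in LP and between 3.25 and 8.41 in tumour libraries. Of the 5 fibroblast markers tested 5 were called lower in tumour over that mean, summing to between 2.77 and 5.95 in LP and between −6.28 and 0.65 in tumour, and *Lum* had 0 reads in every tumour library. B and plasma cell markers were called lower in 3 of 5 over that mean, with summed levels of 5.83 to 13.2 in LP and 0.38 to 7.63 in tumour. The part of these cells in the levels of the clock genes was not tested.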

How the data were processed

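The authors made the libraries with a modified SMARTSeq v2 protocol, aligned paired reads to GRCm38 with STAR (2.3) and counted them per GENCODE gene with featureCounts (1.5). Genes with few reads in all populations were removed and values were scaled with edgeR (version not given in the sources used here). The deposited values are log2 RPKM, 1 column per library. All 415224 values gave whole reads within 0.0001 reads after removal of a prior of 0.25, so depth was recovered. The authors' scaled library sizes were 0.466 to 1.51 times the reads on genes. Symbols were matched for 17190 genes, and 111 had none.

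Log2 RPKM of 12878 genes was fitted with limma (3.58.1, R 4.3.3, trend) over all 24 libraries with 1 mean per group, and p-values were adjusted by Benjamini-Hochberg over all genes of a comparison. Voom on the recovered reads was an alternative. The members and lists were chosen with earlier results of these data known. Named genes were the 10 members, genes called in the lists and the 2 most like genes per member. *Btg2*, *Nr4a1* and *Fkbp5* were picked from their lists after their values were seen. The pool numbers in the labels mark the same mice within a tissue, and for 29 pairs of libraries the correlation of deviations from group means ran from −0.0661 to 0.255 (median 0.0169, consensus correlation 0.0476). Alternatives were the pool as a block, other scalings, filters and pseudocounts, libraries left out and only the groups compared. Summed reads as library size was chosen after seeing the data. The fits were tested on simulated data. No column lacked a sample. Some genes of the list of further clock genes are not reported here.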

Additional observations from a re-analysis of the deposited data

Results flagged for a closer look

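The tumour effect on *Cry1*, a repressor of the clock loop, differed between populations by a test of the difference itself. In macrophages (mean of both subsets) it was lower than in monocytes (difference −1.14 ± 0.29 on the log2 scale, limma adjusted p = 0.0153). This was 1 of 9 members called (11.1%), where 9.19% of all genes were called, so the count is near that share. On the authors' scaling, *Cry1* in all 6 tumour macrophage libraries lay below the LP libraries of their subset. All 3 tumour monocyte libraries lay above theirs on that scaling. The change in monocytes alone was not called, in the main fit or with only the 6 monocyte libraries (0.28 ± 0.10, limma adjusted p = 0.152). A rise of *Cry1* in monocytes is therefore not shown. The difference between populations was called in 27 of 29 alternatives, with a limma adjusted p from 0.00503 to 0.0668.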

How the results depend on the processing

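Of 359 alternative counts of members called, 332 stayed within 1.5 times the count given and 27 did not. Of 99 comparisons of single members 25 were called, 16 of them in every alternative. Leaving out 1 library gave 1 to 2 members for tumour against LP in MHCIIlow macrophages, 1 to 2 in monocytes, 3 to 5 in neutrophils (5 without tumour library V), 0 to 1 for MHCIIlow against MHCIIhi macrophages, 0 to 1 for the tumour effect in neutrophils against monocytes and 0 to 1 between tumour pools. The counts in this section are not set against the share of all genes called in the same fit, so they say nothing particular of clock genes. With voom 5 members were called in MHCIIhi macrophages, 4 in MHCIIlow macrophages, 1 in monocytes and 1 between the macrophage subsets. With log2(RPKM + 1) the counts were 4 in MHCIIlow macrophages, 1 in monocytes, 2 between the subsets and 1 for the tumour effect in neutrophils against monocytes. With only the libraries compared they were 2 in MHCIIlow macrophages, 0 in monocytes (limma) and 2 between the subsets. Quantile normalization gave 2 in MHCIIlow macrophages and 1 between the subsets, centring on the median 2 in MHCIIlow macrophages, array weights 2 and a filter at a mean of 5 RPKM 1 between the subsets. For the tumour effect in macrophages against monocytes the count was 0 with the pool number as a fixed replicate block and 0 with summed reads as library size. The number joins LP and tumour pools II and V, which are different mice. Beside that *Cry1* call, the block with fixed pool number ended the calls of *Arntl* over the mean of the 4 populations (limma adjusted p = 0.307) and of *Nr1d2* in macrophages against monocytes (limma adjusted p = 0.0568), and ended no other call of a member. *Cry1* in neutrophils against monocytes reversed to −0.36 with summed reads. The causes were not tested. Depth limits *Dbp*, *Per3*, *Per2* in monocytes and, in neutrophils, *Arntl*, *Nr1d1*, *Nr1d2* and *Cry2*, which had under 100 reads in many libraries.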
